A study of Dunaliella viridis with 39 samples.

Results

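Locus_14129 was the single locus of 18495 in the Dunaliella viridis tables whose level was at least 2-fold higher 3 h after transfer into each of 4 media than in the inoculum, and whose 27 h levels without nitrogen and on nitrate lay within 2-fold of each other, both on means with 10 normalised counts added. It was chosen from measured values. Counts were divided by median-of-ratios size factors, which gives the normalised count used below, and group means of 3 libraries were compared as log2 ratios after 10 was added to each mean. The conditions were a log2 ratio of at least 1 over the inoculum at 3 h in all 4 media, a lowest 3 h mean of at least 50 normalised counts, and a log2 ratio under 1 in size for no nitrogen over nitrate at 27 h. The levels at 3 h, those of the inoculum and the ratio at 27 h are therefore a description and carry no test. Locus_14129 has no gene name in the tables, so what it encodes is not given here.

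The cells were of strain dumsii of this halophilic green alga, which is unicellular, and were grown under continuous light. Per the labels, cells were spun down in mid-logarithmic growth and resuspended at a set density in medium with 5 mM nitrate, with no added nitrogen, with 5 mM L-glutamine or with 5 mM L-glutamate, and each medium was sampled at 3, 27 and 51 h. The inoculum was sampled when the cultures were started. Its nitrogen source is labelled as nitrate, while the protocol in the labels has the cultures for inoculation grown under the experimental conditions, and this was not resolved here. There was 1 inoculum per repeat, so the 39 libraries fall into 13 groups of 3. The experiment was repeated 3 times, and the number of a replicate joins an inoculum to the cultures it started. Glutamate was included as a stable amino acid that these cells do not use, and the labels put the first sampling at 3 h in part to lessen the shock of transfer.

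Green algae reduce nitrate to ammonium through nitrate reductase and nitrite reductase and bind the ammonium into glutamine and glutamate by glutamine synthetase and glutamate synthase. Cells deprived of nitrogen cut protein synthesis and photosynthetic capacity and store carbon as starch and lipid. Moving cells by centrifugation into fresh medium also changes their density, light exposure and surroundings, whatever the nitrogen source, and species of Dunaliella lack a rigid cell wall. All 4 media at 3 h share the spin, the fresh medium, the new density and the time since harvest, and these cannot be told apart here. RNA came from whole cultures, so that a larger share of cells with the transcript and more of it per cell also cannot be told apart.

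Total counts ran from 3342102 to 41114965 per library with a median of 10192407, and size factors from 0.233 to 4.00. Apart from the rest stood 3 libraries. The top 10 loci held 18.2% of reads in nitrate 3 h replicate 2 and 17.5% in glutamate 51 h replicate 3, where other libraries had 40.4% to 59.6%. No nitrogen 51 h replicate 1 had the smallest size factor and reads in 15777 loci, where the others reached 17719 or more.

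The threshold on the rise at 3 h narrowed the loci most, already in any single medium. The need for all 4 media and the bound at 27 h narrowed them further. Of the 8723 loci with a lowest 3 h mean of at least 50 normalised counts, a log2 ratio of at least 1 over the inoculum was reached by 28 loci in nitrate, 25 without nitrogen, 56 in glutamine and 19 in glutamate. It was reached in all 4 media by 10, and Locus_14129 alone of these lay within the bound, which 7272 of the 8723 loci met. The mirror condition, at least 2-fold lower in all 4 media with an inoculum mean of at least 50 and the same bound, was met by 35 loci. The plot of the lowest transfer ratio against the 27 h ratio shows where Locus_14129 lay.

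**Figure D1:**
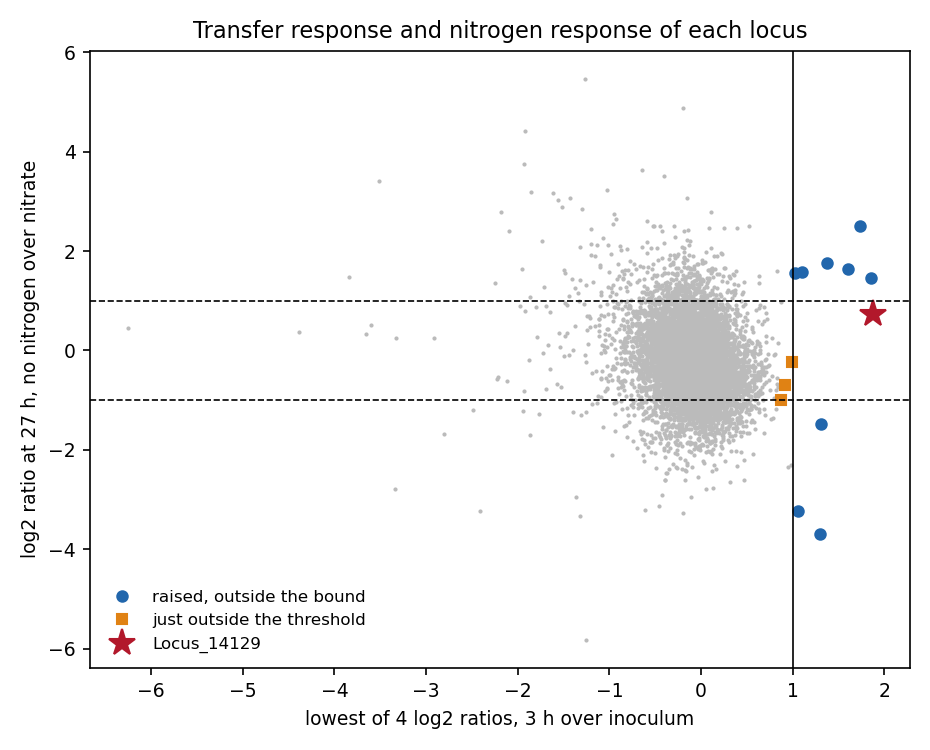
Each point is 1 of the 8723 loci with a lowest 3 h mean of at least 50 normalised counts. The x axis is the lowest of the 4 log2 ratios of 3 h over inoculum, and the y axis is the log2 ratio of no nitrogen over nitrate at 27 h. The vertical line marks 1 and the dashed lines the bound of 1 in size. Locus_14129 (star) lies farthest right at 1.87 with a 27 h ratio of 0.74. The 9 other raised loci (circles) lie above or below the bound, and 3 loci (squares) lie just left of the vertical line.

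In every 3 h library Locus_14129 stood above every library of the inoculum. In glutamine at 3 h replicates 1 to 3 held 146.9, 156.6 and 126.4 normalised counts, from 393, 184 and 143 reads. In nitrate at 3 h they held 104.6, 167.5 and 112.3 normalised counts, from 102, 579 and 87 reads. The highest of these is nitrate 3 h replicate 2, a library that stood apart.

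In glutamate at 3 h replicates 1 to 3 held 143.7, 129.7 and 97.3 normalised counts, from 138, 193 and 274 reads. Without nitrogen at 3 h they held 131.3, 134.4 and 102.1 normalised counts, from 137, 84 and 131 reads. The inoculum held 24.3, 33.6 and 20.9 normalised counts, from only 19, 16 and 36 reads. Counting error alone is wide there: an exact Poisson 95% interval around 16 reads runs from 9.15 to 26.0, while around 579 reads it runs from 533 to 628.

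The rise was of similar size in the 4 media. The log2 ratio over the inoculum was 2.08 in glutamine, 1.93 in nitrate, 1.88 in glutamate and 1.87 without nitrogen, a range of 0.21, or 3.66-fold to 4.23-fold on means with 10 added. Among the 8723 loci these values ranked 2, 1, 1 and 3 from the highest. Across the same loci the median ratio was 0.04 in glutamine, 0.04 in nitrate, 0.02 in glutamate and -0.01 without nitrogen, and the central 95% ended at 0.79, 0.69, 0.56 and 0.64. The highest ratios of any such locus were 2.13 for Locus_848 in glutamine and 1.92 for Locus_17026 without nitrogen. The 4 ratios share the 3 inoculum libraries and so are not independent of each other. The range of 0.21 did not set Locus_14129 apart. Among the other loci raised in all 4 media the range ran from 0.06 for Locus_17242 to 0.82 for Locus_848.

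Set against the inoculum of its own replicate number, each of the 12 libraries of 3 h was higher, with single log2 ratios between 1.68 and 2.19. The mean of the 3 paired ratios for Locus_14129 was 2.09 ± 0.14 in glutamine, 1.92 ± 0.16 in nitrate, 1.88 ± 0.25 in glutamate and 1.88 ± 0.16 without nitrogen (SD, n = 3). The single paired ratios of every medium overlapped those of the others. Within sequencing run 1, with 2 libraries of 3 h and 1 of the inoculum, the ratios were 2.24 in glutamine, 2.09 in nitrate, 2.10 in glutamate and 2.06 without nitrogen. Within run 2, with 1 library of 3 h and 2 of the inoculum, they were 1.87, 1.72, 1.53 and 1.59. This ratio of run means was thus lower in run 2 in each medium, but not every paired ratio was. Replicate 3 in run 2 and replicate 1 in run 1 each have their own inoculum in the same run. Their paired ratios were 1.99 and 1.74 in nitrate and 2.14 and 2.19 in glutamine. They were 1.80 and 2.16 in glutamate and 1.86 and 2.04 without nitrogen. All 3 h libraries of run 2 are replicate 3, so run and replicate cannot be told apart. Without nitrate 3 h replicate 2 the nitrate ratio became the lowest of the 4, at 1.71.

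The edgeR quasi-likelihood fit over all 39 libraries called Locus_14129 higher at 3 h in all 4 media, which the choice of the locus on these libraries leads to. In counts-per-million (CPM) on TMM-scaled libraries it averaged 15.0 ± 1.71 in glutamine, 13.5 ± 3.86 in nitrate, 12.9 ± 2.57 in glutamate and 12.6 ± 1.81 without nitrogen, against 2.71 ± 0.63 in the inoculum (SD, n = 3 each). The fitted fold was 5.79 in glutamine, 5.29 in nitrate, 4.94 in glutamate and 4.86 without nitrogen. Higher calls made up 3.67% of the 17569 loci tested in glutamine, 2.39% in nitrate, 0.729% in glutamate and 0.951% without nitrogen. Nothing further is read from these calls. The folds exceed those on means with 10 added, an offset that shrinks the ratio of a locus with so few inoculum reads. The scaling and the model also differ, and the share of each in the gap was not tested.

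Per length, the locus moved from the low end of the transcriptome to its middle. On the deposited transcripts-per-million (TPM) scale it lay between 4.21 and 19.2 TPM in the 12 libraries of 3 h with a median of 7.60, against 1.10, 1.23 and 2.11 TPM in the inoculum. Ranked within each library, it exceeded 52.5% to 69.0% of all loci at 3 h, against 14.0% to 19.8% in the inoculum. The highest TPM value again came from nitrate 3 h replicate 2, and the other nitrate libraries of 3 h held 4.21 and 7.64 TPM. From the ratio of counts to TPM, the length used for Locus_14129 was 1.59 times that of the median locus, longer than 81.1% of the 18244 loci for which this could be computed.

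By 27 h the level had come down in every medium, and no 27 h group overlapped the 3 h group of its medium. Nitrate libraries at 27 h held 27.7, 23.9 and 16.0 normalised counts, and glutamine libraries at 27 h held 27.4, 22.1 and 17.3. Glutamate libraries at 27 h held 18.7, 46.5 and 27.4, and libraries without nitrogen at 27 h held 38.6, 48.6 and 46.2. The first 3 of these groups overlapped the inoculum, while all libraries without nitrogen lay above it. The libraries without nitrogen also lay wholly above those of nitrate at 27 h, at a log2 ratio of 0.74 inside the bound of 1. The margin to the bound depended on the offset added to the means. This ratio of no nitrogen over nitrate was 0.60 with an offset of 20, 0.84 with 5 and 0.95 with 1. With library totals in place of size factors it was 1.03, outside the bound. Run 1 alone gave 0.58 and run 2 alone gave 1.11. The 27 h log2 ratio over 3 h was -2.08 in nitrate, -2.25 in glutamine, -1.71 in glutamate and -1.28 without nitrogen. Over the inoculum it was -0.16 in nitrate, -0.17 in glutamine, 0.17 in glutamate and 0.59 without nitrogen. Since the locus was chosen for being high at 3 h, its lower level later carries no test.

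At 51 h the level was again below that of 3 h in every medium. Nitrate libraries at 51 h held 43.5, 31.6 and 18.8 normalised counts, and glutamine libraries at 51 h held 32.6, 49.3 and 43.5. Glutamate libraries at 51 h held 59.2, 51.1 and 37.1, and libraries without nitrogen at 51 h held 81.5, 34.8 and 34.8. The value of 81.5 comes from no nitrogen 51 h replicate 1, the shallow library that stood apart, where it rests on 19 reads. The log2 ratio over the inoculum was 0.19 in nitrate, 0.51 in glutamine, 0.71 in glutamate and 0.73 without nitrogen. The glutamate libraries and those without nitrogen lay wholly above the inoculum, and the other 2 media overlapped it. The margins were small: the lowest libraries held 37.1 in glutamate and 34.8 without nitrogen. The highest inoculum library held 33.6, from only 16 reads. Over the inoculum of its own number, no nitrogen 51 h replicate 2 had a log2 ratio of 0.04. The plot of Locus_14129 by library shows all 39 values.

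**Figure D2:**
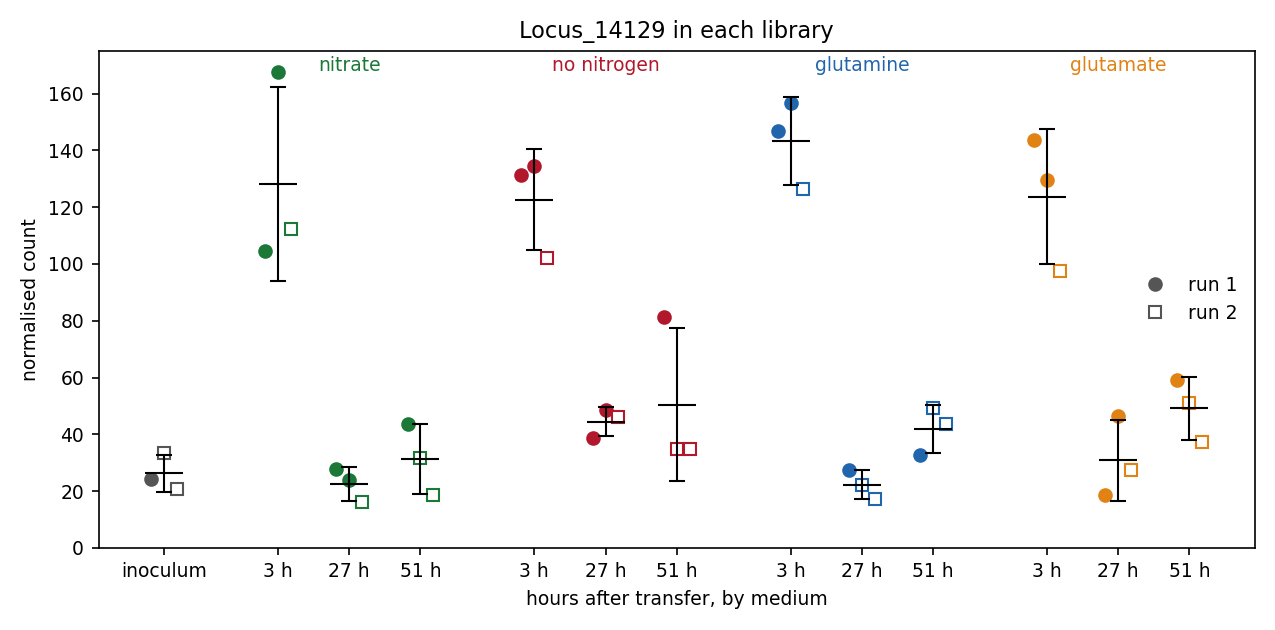
The y axis is the normalised count of Locus_14129 in each of the 39 libraries, and the x axis gives the inoculum and then each medium at 3, 27 and 51 h. Filled circles are libraries of sequencing run 1 and open squares those of run 2, and bars give the mean and SD of 3 libraries. All 12 libraries of 3 h lie between 97.3 and 167.5, and all 24 later libraries between 16.0 and 81.5.

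Ordered by mean normalised count, the 3 h groups came first, with glutamine at 143.3 ± 15.4, nitrate at 128.2 ± 34.3, glutamate at 123.6 ± 23.8 and no nitrogen at 122.6 ± 17.8 (SD, n = 3). Then came no nitrogen at 51 h with 50.3 ± 26.9, glutamate at 51 h with 49.1 ± 11.2, no nitrogen at 27 h with 44.5 ± 5.20 and glutamine at 51 h with 41.8 ± 8.49. The mean of no nitrogen at 51 h includes the shallow replicate 1. Its median was 34.8, below those of glutamate at 51 h (51.1), no nitrogen at 27 h (46.2) and glutamine at 51 h (43.5). The lowest were nitrate at 51 h with 31.3 ± 12.3, glutamate at 27 h with 30.8 ± 14.2, the inoculum with 26.3 ± 6.56, nitrate at 27 h with 22.6 ± 5.96 and glutamine at 27 h with 22.3 ± 5.08. Only between the lowest 3 h group and no nitrogen at 51 h, 72.3 apart in mean, did the libraries of neighbours in this order not overlap.

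Among the libraries of 27 and 51 h, 11 comparisons other than the one the rule bounded were tested. Those that include nitrate or no nitrogen at 27 h share libraries with the bound and are not independent of it. With edgeR and Benjamini-Hochberg adjustment over all loci none of the 11 was called for Locus_14129, although 3 of them had an unadjusted p under 0.05. That fit did not pair libraries by replicate number. With replicate number as a block, edgeR called glutamine at 51 h against 27 h and glutamate against nitrate at 51 h. By DESeq2, without the block, 1 was called. The 95% intervals reached between 0.60 and 0.73 on either side of the estimated log2 fold change, and estimates as large as 0.97 were not called.

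The change between 27 and 51 h was examined in each medium. In nitrate, in glutamate and without nitrogen, replicate 2 was in sequencing run 1 at 27 h and in run 2 at 51 h. In glutamine replicate 2 was in run 2 at both times. Time is thus partly mixed with run in every medium except glutamine. In glutamine the 51 h libraries averaged 4.29 ± 0.89 CPM, against 2.29 ± 0.52 CPM at 27 h, and the groups did not overlap. The log2 fold change was 0.97 (95% interval 0.29 to 1.66, edgeR adjusted p = 0.0617), in a comparison where 9.69% of all loci were called. With the replicate number as a block, which the labels support, it was 0.99 and was called (edgeR adjusted p = 0.0205). Over all 16 alternatives the value ran from 0.37 to 1.25 and the adjusted p from 0.0205 to 0.727, with 6 called. With single libraries left out the value ran from 0.76 to 1.16, and 0 of these 6 fits called it.

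In glutamate Locus_14129 averaged 5.05 ± 1.22 CPM at 51 h, against 3.18 ± 1.47 CPM at 27 h, with a log2 fold change of 0.73 (interval 0.10 to 1.37, edgeR adjusted p = 0.443, 0.239% of loci called). In nitrate it averaged 3.20 ± 1.22 CPM at 51 h, against 2.34 ± 0.61 CPM at 27 h, with 0.41 (-0.31 to 1.14, edgeR adjusted p = 0.986, 0.387% of loci called). Neither comparison separated the groups. Without nitrogen it averaged 5.16 ± 2.68 CPM at 51 h, against 4.57 ± 0.51 CPM at 27 h. The fitted log2 fold change there was -0.09 (-0.69 to 0.51, edgeR adjusted p = 0.959, 0.535% of loci called). The means and the fitted value differ in sign, and without no nitrogen 51 h replicate 1 the fitted value was -0.36. With run as a covariate the change was 0.53 in nitrate, 0.81 in glutamate and 0.065 without nitrogen, and none of these was called.

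At 51 h the media were compared with nitrate. Glutamate at 51 h, with 5.05 ± 1.22 CPM against 3.20 ± 1.22 CPM in nitrate, gave a log2 fold change of 0.74 (interval 0.09 to 1.39, edgeR adjusted p = 0.0604), where 42% of all loci were called. The groups overlapped. With the replicate block the value was 0.73 and was called (edgeR adjusted p = 0.0320), and over all alternatives the adjusted p ran from 0.0195 to 0.360. It was called once glutamate 51 h replicate 3, with its unusual top loci, was left out (0.88, edgeR adjusted p = 0.0422), and without nitrate 51 h replicate 1 (0.91, edgeR adjusted p = 0.0377). Without nitrate 51 h replicate 3 the value was 0.43 (edgeR adjusted p = 0.360).

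No nitrogen at 51 h, with 5.16 ± 2.68 CPM against the same 3.20 ± 1.22 CPM in nitrate, gave 0.51 (-0.14 to 1.17, edgeR adjusted p = 0.206, 41.5% of loci called), and without its replicate 1 gave 0.19. Glutamine at 51 h, with 4.29 ± 0.89 CPM, gave 0.53 over nitrate (-0.15 to 1.21, edgeR adjusted p = 0.374, 10.5% of loci called), and between 0.22 without nitrate 51 h replicate 3 and 0.78 without nitrate 51 h replicate 1. Libraries of both overlapped those of nitrate. These comparisons share the nitrate libraries.

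The media without usable nitrogen were also compared with each other and with glutamine. Glutamate over no nitrogen at 51 h gave 0.23 (-0.39 to 0.84, edgeR adjusted p = 0.999). In that comparison edgeR called 0 of all loci, or 0%, while 503 had an unadjusted p under 0.05. DESeq2 also called 0. Glutamine over no nitrogen at 51 h gave 0.02 (-0.62 to 0.66, edgeR adjusted p = 0.979, 21.2% of loci called). In both comparisons the mean CPM was higher without nitrogen while the fitted value was above 0, and the mean without nitrogen includes the shallow replicate 1.

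At 27 h glutamine averaged 2.29 ± 0.52 CPM, against 2.34 ± 0.61 CPM in nitrate, with a log2 fold change of -0.03 (-0.76 to 0.70, edgeR adjusted p = 1.00, 0.0968% of loci called). Glutamine at 27 h, against 3.18 ± 1.47 CPM in glutamate, gave -0.45 (-1.13 to 0.23, edgeR adjusted p = 0.312, 32.2% of loci called), and -0.15 without glutamate 27 h replicate 2. Whether the change between 27 and 51 h differed between media was tested for the 6 pairs of media, of which nitrate with no nitrogen contains the ratio that the rule bounded. None was called by edgeR, and 1 had an unadjusted p under 0.05: no nitrogen minus glutamine was -1.06 on the log2 scale (SE 0.45, edgeR adjusted p = 0.221). DESeq2 was not run on these differences, and neither replicate number nor run was fitted in them. The libraries of glutamine at 27 and 51 h fall over the runs otherwise than those of the other media. A difference that involves glutamine is thus partly mixed with run.

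**Figure D3:**
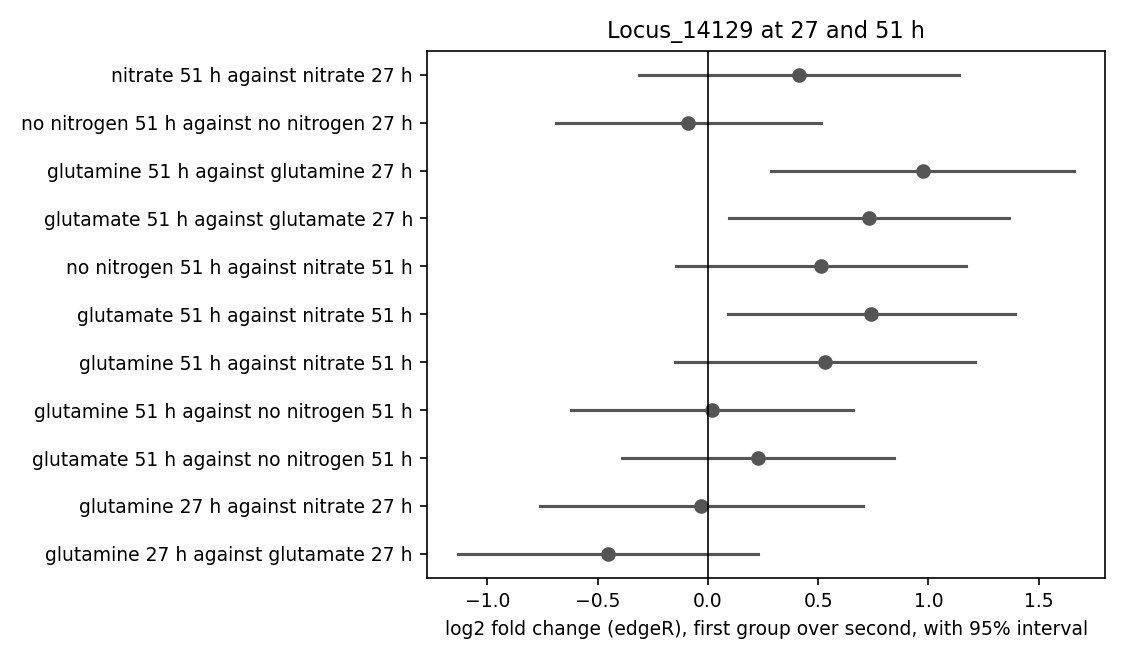
The x axis is the edgeR log2 fold change of Locus_14129, first-named group over second, and each line is its 95% interval. Rows are the 11 comparisons among libraries of 27 and 51 h. The intervals of glutamine 51 h against 27 h (0.97), glutamate 51 h against 27 h (0.73) and glutamate against nitrate at 51 h (0.74) lie above 0. None of the 11 was called after adjustment over all loci in this fit, which had no replicate block.

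The 9 other loci that were raised at 3 h in all 4 media failed only the bound, and they fell on both sides of it. At 27 h Locus_17026, Locus_17699, Locus_14411, Locus_304, Locus_16236 and Locus_17242 were higher without nitrogen than on nitrate, with log2 ratios of 2.50, 1.76, 1.64, 1.58, 1.56 and 1.46. Locus_848, Locus_282 and Locus_134 were lower, with -1.48, -3.22 and -3.70. Locus_14129, at 0.74, lay on the side of the 6 but inside the bound. Locus_17242 lay near it at 3 h, with ratios of 1.85 to 1.92 over the inoculum in the 4 media, against 1.87 to 2.08 for Locus_14129.

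The values of these 9 loci at 51 h are given as a description, since they were chosen for their difference at 27 h. Locus_14129 was chosen for a ratio inside the bound, so a contrast of the 9 with it carries no test. For no nitrogen over nitrate edgeR called 6 of the 9 higher and 2 lower, in a comparison where 41.5% of all loci were called. The log2 fold changes of the 9 ran from -2.90 to 3.07. Locus_17242 averaged 8.44 ± 0.60 CPM without nitrogen, against 2.09 ± 0.62 CPM in nitrate, a log2 fold change of 1.92. In glutamine at 51 h against 27 h edgeR called 6 higher and 3 lower, where 9.69% of all loci were called. Locus_17242 had 8.41 ± 0.83 CPM at 51 h, against 3.74 ± 0.52 CPM at 27 h. Its log2 fold change was 1.21, and that of Locus_14129 was 0.97.

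**Figure D4:**
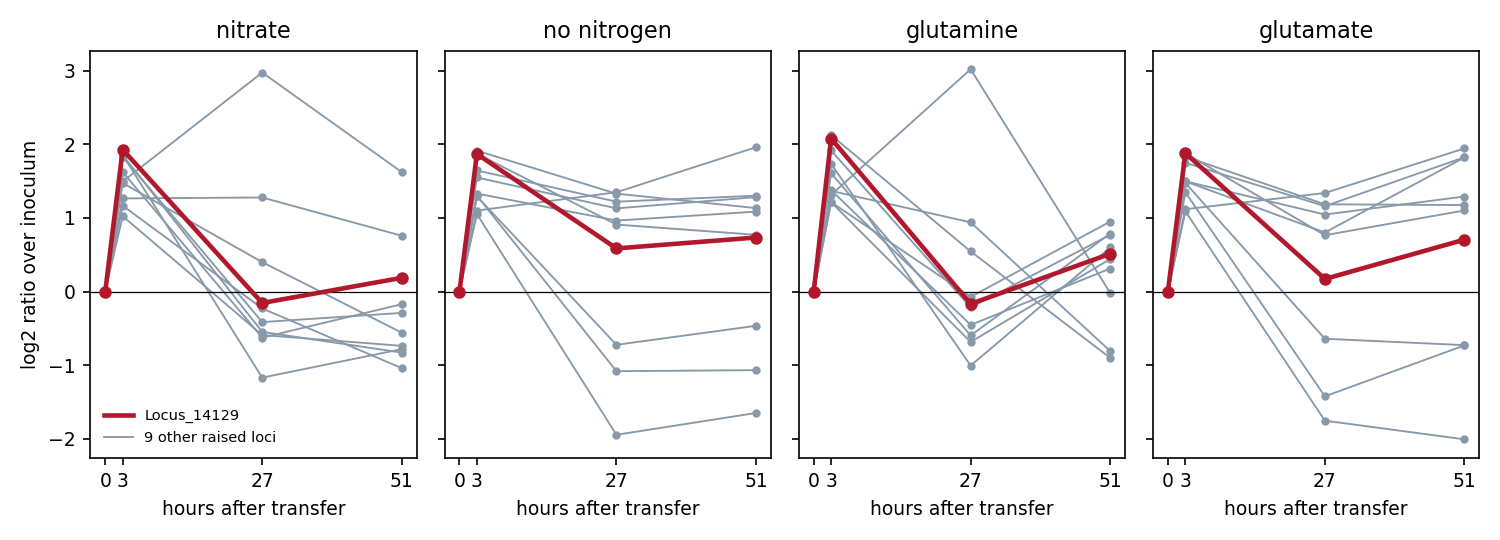
The y axis is the log2 ratio of each group mean over the inoculum mean, with 10 normalised counts added to both, and the x axis is hours after transfer in each of the 4 media. The thick line is Locus_14129 and the thin lines are the 9 other loci raised at 3 h in all media. Locus_14129 lies at 1.87 to 2.08 at 3 h and between -0.17 and 0.73 at the later times. At 27 h the other 9 lie from -1.17 to 2.98 in nitrate and from -1.95 to 1.35 without nitrogen. They lie from -1.01 to 3.02 in glutamine and from -1.75 to 1.34 in glutamate. The 9 were taken outside the bound at 27 h and Locus_14129 inside it, so their wider spread follows in part from the choice.

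Just outside the threshold, with the other conditions met, were Locus_1109 with a lowest ratio of 0.99, Locus_783 with 0.91 and Locus_11315 with 0.87. The nearest locus inside is Locus_14129 itself, at 1.87. Locus_1109 differed from it in its later course: its ratio over the inoculum was 1.33 in nitrate at 27 h and 1.10 without nitrogen at 27 h, while that of Locus_14129 was -0.16 and 0.59.

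The loci whose pattern was most like that of Locus_14129 were ranked by Pearson's r of log2(normalised count + 10) across the 39 libraries among 8722 others, whose median r was 0.04. All points share libraries and scaling, and r is given as a description. Locus_2804 came first with r = 0.88, then Locus_10734 and Locus_17242 with 0.85 each and Locus_435 with 0.83. Over the 24 libraries of 27 and 51 h alone r was 0.67 for Locus_2804, 0.29 for Locus_10734, 0.57 for Locus_17242 and -0.33 for Locus_435, so that much of the likeness lay in the contrast of 3 h with the other times. Locus_2804 had a far smaller rise at 3 h, with ratios of 0.46 to 0.53, on a higher level of 512 normalised counts in the inoculum.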

How the data were processed

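Read counts and TPM values of 18495 loci in 39 libraries were deposited by the authors. Per the labels, total RNA was depleted of ribosomal RNA. Tools in the submitters' processing notes are STAR, RSEM, FastQC and edgeR 3.4.0, without roles. Genome build, annotation and strand setting: not given in the sources used here. Loci carry numbers without names, and reads could be split between near-identical loci. TPM depends on the most abundant loci of a library.

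Counts were tested with edgeR 4.0.16 in R 4.3.3: filterByExpr kept 17569 loci and removed 926, TMM factors scaled libraries, and 1 quasi-likelihood fit held a mean per group. The threshold was an adjusted p of 0.05. Alternatives were DESeq2 1.42.0, limma 3.58.1 on log2(TPM + 1) and log2(TPM + 0.1), other scalings, no filter, a replicate block, a run covariate, single runs and left-out libraries. Locus_14129 and the loci set beside it were chosen with earlier results of these data known. The rule for named loci took those that meet the conditions and the 3 just outside the threshold of 1. The 9 raised loci outside the bound and the loci most like Locus_14129 were named, and the differences between media in change over time tested, after the values were seen. Replicate numbers pair libraries, since the labels make each number 1 repeat of the experiment. Deviations from group means correlated at a mean of 0.132 within a number and -0.0655 between numbers, and 57.7% of the 234 pairs within a number exceeded 0.1. No pair of libraries of a group agreed within sampling noise. The labels do not say which of the duplicate cultures a library holds.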

Additional observations from a re-analysis of the deposited data

How the results depend on the processing

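Of 249 alternative values of the 15 comparisons, 216 kept direction and side of the threshold, 13 were newly called, 20 changed sign and 0 lost a call. At 3 h Locus_14129 was called in 17 of 17 alternatives in each medium. Newly called log2 fold changes for glutamine at 51 h against 27 h were 0.99 with the replicate block, 1.02 with run as a covariate, 1.03 with only both groups, 0.95 without the 3 libraries that stand apart, 1.25 in run 2 alone and 0.98 in DESeq2. For glutamate against nitrate at 51 h they were 0.73 with the replicate block, 0.73 with the run covariate, 0.88 without the 3 libraries, and 0.97 and 1.28 in limma with 1 and 0.1 added to TPM. Leaving out single libraries gave 0.43 to 0.91 for this comparison, with 2 of 6 fits called. The block changed no other call. Signs changed in 3 comparisons with values near 0. No nitrogen at 51 h against 27 h became 0.065 with the run covariate, 0.84 in run 1 alone, and 0.036 and 0.062 in limma with 1 and 0.1 added, and ran from -0.36 to 0.12 with single libraries left out. Glutamine against no nitrogen at 51 h became -0.052 with only both groups, and -0.33 and -0.47 in limma, and ran from -0.19 to 0.35. Glutamine against nitrate at 27 h became 0.070 with the run covariate, 0.10 in run 1, 0.22 in run 2, and 0.18 and 0.31 in limma, and ran from -0.28 to 0.18. The causes were not tested. The number of loci that met the rule was 1, but 0 when library totals replaced size factors (27 h ratio of 1.03), 2 with an offset of 5 and 2 with an offset of 1, and 1 to 3 with single libraries left out. Run 1 alone gave 10, and run 2 alone gave 8 without Locus_14129, whose 27 h ratio was 1.11. Locus_14129 was kept in 28 of 30 alternatives. Most of these left out a single library, and leaving out nitrate 3 h replicate 2 is counted 2 times among them. The offset of 1 and the separate runs in the tests were chosen after seeing the data. The late libraries hold 12 to 139 reads of Locus_14129, and counting error is wide at such counts. With single libraries left out, glutamate at 51 h against 27 h ran from 0.51 to 1.03, nitrate at 51 h against 27 h from 0.16 to 0.72, no nitrogen against nitrate at 51 h from 0.19 to 0.72 and glutamate against no nitrogen at 51 h from 0.023 to 0.49.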
